A study of Mus musculus with 2 samples.

Results

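The Myf5 cells of the E9.5 embryo were chosen by their own counts, as cells with at least 2 unique molecular identifiers (UMIs) of Myf5 and none of Sox2. There were 182 such cells among the 9851 E9.5 cells that passed quality filters (1.85%, 95% interval 1.59% to 2.13%), and 19446 cells in the whole series. They come from a study of inter-limb somites of wild-type C57BL/6 mouse embryos at E9.5 and E11.5, in which the somites of 3 embryos of each age were pooled, dissociated and captured in 1 droplet library. A UMI is a random tag that lets copies of the same transcript be counted once. The study set out to describe how muscle progenitors and muscle cells differ in the embryo, and no allele, transgene or treatment separates its groups. With 1 library at each stage there was no test of any difference, and the 182 cells are not replicates of a condition. The 30 cell barcodes that the libraries shared were counted as separate cells.

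The Myf5 cells were set beside 1070 E9.5 cells with at least 1 UMI of Pax3 and of Meox1 and none of Myf5 or Sox2, called progenitor cells here. Myf5, Sox2, Pax3 and Meox1 defined the classes, so their levels are no result. Levels are UMIs summed over a class per 1000000 UMIs of that class (UPM), which rest on 4029506 UMIs in the Myf5 cells and 17663517 in the progenitor cells. All intervals are exact 95% intervals and cover counting error only, not differences between embryos or libraries. Those of levels and ratios take each UMI as independent, so they leave out variation between cells as well. They are too narrow where few cells hold most UMIs of a gene. The median Myf5 cell held 20215 UMIs and the median progenitor cell 14547, and since the Myf5 cells were chosen by a UMI count, deeper cells were more likely to be chosen. Myf5 itself had 684 UMIs in the Myf5 cells, with a median of 3 and a highest value of 20 in a cell.

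Myf5 is the earliest of the myogenic regulatory factors, basic helix-loop-helix proteins that commit somite cells to muscle and bind E-boxes in muscle genes. In the mouse it comes on at the dorsomedial edge of the dermomyotome, the epithelial sheet of Pax3-positive cells in the dorsal somite, under Wnt signals from the neural tube and surface ectoderm. Cells that leave this edge form the myotome beneath it, where Myog (myogenin) and then the contractile proteins are made. Myf5 lies at chr10:107482908-107486134 on the minus strand of GRCm38, beside Myf6.

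Wnt6, Zic1 and Gatm came as markers with the label of early myotome, which was given with earlier results of these data known. Their levels describe the cells and do not test the label. Wnt6, a secreted Wnt ligand of the surface ectoderm and dorsal somite (chr1:74771892-74785322), stood at 45.9 UPM (interval 39.5 to 53.0) in the Myf5 cells and 7.42 UPM in the progenitor cells, a log2 ratio of 2.63 (2.30 to 2.96). Zic1, a zinc finger factor of the dorsal neural tube and dorsal somite (chr9:91358058-91365810), stood at 113 UPM in the Myf5 cells and 32.6 UPM in the progenitor cells, a log2 ratio of 1.80 (1.62 to 1.98). Gatm, which catalyses the committed step of creatine synthesis (chr2:122594467-122611303), stood at 47.6 UPM against 8.49 UPM, a log2 ratio of 2.49 (2.17 to 2.81). All 3 markers were thus higher in the Myf5 cells, and none of them was found in every cell, so the cells are called by their rule, as Myf5 cells.

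Wnt6 was detected in 39.6% of the Myf5 cells (32.4% to 47.1%) and in 6.73% of the progenitor cells, with 0.476% in E9.5 endothelial cells (at least 1 UMI of Pecam1 and of Cdh5, 210 cells, median 16277 UMIs), which served as the background of free RNA. The share for Zic1 was 45.6% in the Myf5 cells, 13.8% in the progenitor cells and 1.43% in the endothelial cells. For Gatm the endothelial share was 18.6%, above the 10.3% of the progenitor cells, and the Myf5 cells had 41.2%. The endothelial cells therefore gave no background of free RNA for Gatm. When every cell was thinned to 5000 UMIs, which left out 3 Myf5 cells, 15.6% of the Myf5 cells held Wnt6, 29.1% Zic1 and 17.9% Gatm. The progenitor cells then held 2.82%, 8.46% and 2.82%, so the order of the classes was the same at equal depth.

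The markers were unevenly spread among the Myf5 cells. None of the 3 was detected in 66 of the 182 cells, 1 in 42 cells, 2 in 34 cells and all 3 in 40 cells. The same numbers in the 1070 progenitor cells were 844, 151, 46 and 29. Wnt6 and Zic1 met in the same cells, since 83.3% of the 72 Myf5 cells with Wnt6 held Zic1 and 20.9% of the 110 without it did. The median depth was 19131 UMIs with Wnt6 and 20387 UMIs without it. Pax3 was detected in 80.8% of the Myf5 cells, and 147 cells held both Pax3 and Meox1.

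Markers of the other tissues near the somite were checked with them. The endothelial genes Cdh5, Tek, Tie1, Sox17 and Erg were at 0 UMIs in the Myf5 cells, and the summed endothelial list stood at 30.3 UPM against 61.7 UPM in the progenitor cells, with Egfl7 as its most abundant gene. Since Wnt6 also marks surface ectoderm, that list was read with it: Cdh1, Trp63 and Krt14 were at 0 UMIs, Epcam had 7 UMIs, and Wnt6 alone made up most of its 61.3 UPM. Sox1 and Pax6 of the neural tube had 3 UMIs each. The neural tube list summed to 149 UPM against 67.6 UPM in the progenitor cells, and most of it was Nes, an intermediate filament gene (109 UPM). In this list Nes and the neuronal tubulin gene Tubb3 were past 2-fold higher and Irx3 lower. The kind of cell behind these UMIs was not tested. Globin genes put the blood list at 693 UPM against 502 UPM, but Ptprc, Tyrobp and Csf1r were at 0 UMIs and 1 cell held 1088 of the 1113 Hbb-y UMIs. The lateral plate list summed to 37.0 UPM in the Myf5 cells and 56.2 UPM in the progenitor cells, led by Prrx1, with Hand1, Gata4, Tbx5 and Alx4 at 0. The intermediate mesoderm list stood at 14.9 UPM and 26.6 UPM, led by Pax8.

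The threshold of the rule lies between 1 and 2 Myf5 UMIs. Cells with exactly 1 Myf5 UMI, which the rule leaves out, had 16.6 UPM of Wnt6, 66.2 UPM of Zic1 and 12.7 UPM of Gatm. Cells with exactly 2, the lowest count inside, had 28.0, 89.2 and 26.4 UPM of the same genes in that order. In the 57 cells with 4 or more Myf5 UMIs the levels were 63.8 UPM for Wnt6, 131 UPM for Zic1 and 72.8 UPM for Gatm. At 3 Myf5 UMIs Gatm stood at 56.2 UPM, while the level of Zic1 was above that at 4 or more, so Zic1 did not rise at every step. The cells with 1 Myf5 UMI lay between the progenitor cells and the Myf5 cells for each of the 3 genes. Myog stood at 0.51 UPM in the progenitor cells, 5.39 UPM at 1 Myf5 UMI, 33.2 UPM at 2, 104 UPM at 3 and 239 UPM at 4 or more. The 28 muscle differentiation genes summed to 342 UPM in the progenitor cells and 392 UPM at 1 Myf5 UMI. They summed to 531 UPM at 2, 1332 UPM at 3 and 4027 UPM at 4 or more. The most abundant of these genes in all Myf5 cells was Tpm1, a tropomyosin gene, with 552 of 1847 UPM. Its part in each bin is not given here. Single cells weighed on the upper bins: 1 cell held 497 of the 1067 UMIs at 3, and 1 cell held 2128 of the 5368 at 4 or more. The progenitor cells were chosen by Pax3 and Meox1, while neither gene was asked of the bins with 1 or more Myf5 UMIs, and markers of other cells differed between the bins. The blood list summed to 502 UPM in the progenitor cells, 1958 UPM at 1 Myf5 UMI, 1457 UPM at 2, 13.7 UPM at 3 and 15.8 UPM at 4 or more. The endothelial list stood at 61.7, 107, 32.7, 29.97 and 27.0 UPM in the same order. The neural tube list rose, with 67.6, 67.8, 76.5, 142 and 255 UPM. The neural crest list stood at 103, 44.3, 38.0, 37.5 and 51.0 UPM. Their part in the marker levels of each bin was not tested.

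**Figure D1:**
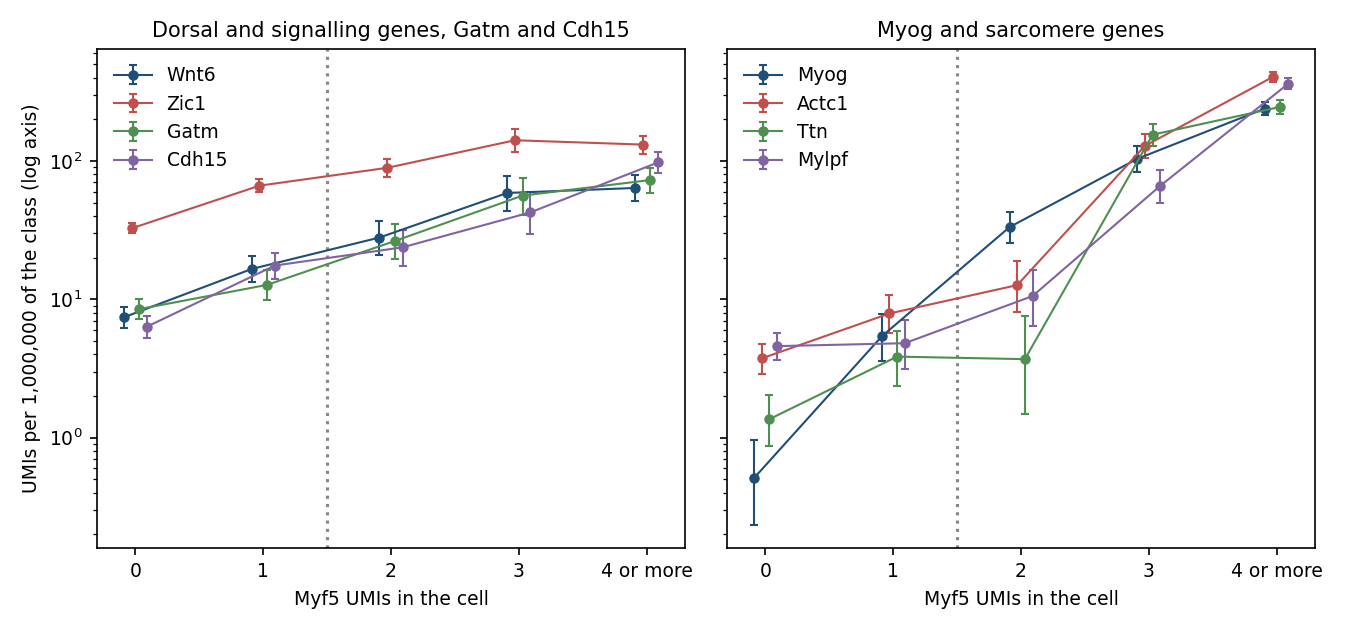
Levels of 4 genes per panel (UMIs per 1000000 of the class, log axis, with exact 95% Poisson intervals) in E9.5 cells by their Myf5 UMI count, where 0 stands for the progenitor cells and the dotted line is the threshold of the rule. Wnt6 goes from 7.42 to 63.8 UPM across the bins and Myog from 0.51 to 239 UPM.

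Over all genes with at least 100 UMIs in both classes together, 106 of 9095 (1.17%) were at least 2-fold higher in the Myf5 cells and 70 (0.77%) at least 2-fold lower. The median log2 ratio of all these genes was -0.01. Against only the 592 progenitor cells with at least 13786 UMIs, the lower quartile of the Myf5 cells, 95 genes were higher and 58 lower. The counts differed more under other settings, with 50 higher and 61 lower when each cell was thinned to 5000 UMIs, 161 and 159 with at least 3 Myf5 UMIs, and 247 and 274 with a minimum of 30 UMIs. Thinned before the choice, with 1 Myf5 UMI enough, 29 were higher and 21 lower. Such settings also change how many genes reach the UMI minimum. That number is not given for them, so these counts are not shares to set beside 1.17% and 0.77%. The 15 highest genes found in at least 10% of the Myf5 cells were Myog, Ttn, Actc1, Tnnt2, Myl1, Mylpf, Cdkn1a, Tagln, Rbm24, Tnnt1, Acta2, Cck, Cdh15, Tnni1 and Wnt11. Myog had 465 UMIs in 35 Myf5 cells and 9 UMIs in the progenitor cells, which is 115.4 UPM against 0.51 UPM and a log2 ratio of 7.82 (6.89 to 8.96). Titin (Ttn), the giant spring of the sarcomere, had 114 UPM against 1.36 UPM, a log2 ratio of 6.39 (5.80 to 7.05). Cardiac alpha-actin (Actc1), the early actin of embryonic skeletal muscle, stood at 165 UPM against 3.74 UPM. Troponin T2 (Tnnt2), part of the calcium switch of the thin filament, stood at 58.1 UPM against 1.47 UPM, and the myosin light chains Myl1 and Mylpf at 38.2 and 137 UPM against 1.08 and 4.59 UPM. Tnnt1 (28.3 UPM against 2.15 UPM) and Tnni1 (61.5 UPM against 7.76 UPM), further troponin subunits, the smooth muscle type actin Acta2 (84.6 UPM against 7.53 UPM) and the actin-binding protein gene Tagln (103 UPM against 5.38 UPM) were higher as well, as was Rbm24, an RNA-binding protein of muscle splicing (30.8 UPM against 1.92 UPM). The 28 muscle differentiation genes summed to 1847 UPM in the Myf5 cells and 342 UPM in the progenitor cells. Of these, 16 passed the UMI minimum but only 6 would have with the progenitor cells alone, so no count over those that passed is read. Among the 12 that did not pass, the embryonic myosin Myh3 had 73 UMIs against 1, and Myh8 had 0 against 3. Counts given below for other lists likewise cover only the genes that reached 100 UMIs, which a gene could do through the class in which it was high.

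These contractile genes came from few cells. The 10 richest cells held 94.6% of the Ttn UMIs, 94.7% of the Actc1 UMIs and 95.7% of the Mylpf UMIs. For Cdh15 the figure was 32.5%, and for Wnt6 33.0%. The Myf5 cells were therefore also described with and without a Myog UMI, a split added after the values had been seen. Myog was found in 35 cells (median 24742 UMIs), and the other 147 (median 19943 UMIs) had none.

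The upstream DNA of these genes is shown for Tnnt2, Ttn, Mylpf and Cck, because the factors that Myf5 belongs to bind E-boxes. Each run is the 250 bases before the RefSeq start on GRCm38.p6, and capitals mark CAGCTG or CACCTG, the latter also as its reverse complement CAGGTG. The windows lie at chr1:135836084-135836333 on the plus strand (Tnnt2), chr2:76982548-76982797 on the minus strand (Ttn), chr7:127211358-127211607 on the plus strand (Mylpf) and chr9:121495695-121495944 on the minus strand (Cck), and none of them touches an annotated exon.
Tnnt2: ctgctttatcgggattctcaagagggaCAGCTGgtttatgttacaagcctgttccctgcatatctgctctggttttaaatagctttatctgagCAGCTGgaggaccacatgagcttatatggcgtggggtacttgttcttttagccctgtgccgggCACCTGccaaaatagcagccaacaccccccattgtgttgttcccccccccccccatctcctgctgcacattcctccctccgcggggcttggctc
Ttn: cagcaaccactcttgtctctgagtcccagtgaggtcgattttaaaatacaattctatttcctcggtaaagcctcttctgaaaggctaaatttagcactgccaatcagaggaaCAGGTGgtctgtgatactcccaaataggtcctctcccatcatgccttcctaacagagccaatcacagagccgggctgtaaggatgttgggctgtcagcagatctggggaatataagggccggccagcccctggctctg
Mylpf: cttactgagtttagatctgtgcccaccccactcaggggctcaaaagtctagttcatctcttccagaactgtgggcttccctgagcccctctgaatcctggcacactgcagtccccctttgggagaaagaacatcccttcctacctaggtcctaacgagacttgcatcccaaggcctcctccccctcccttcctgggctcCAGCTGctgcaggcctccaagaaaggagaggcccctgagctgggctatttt
Cck: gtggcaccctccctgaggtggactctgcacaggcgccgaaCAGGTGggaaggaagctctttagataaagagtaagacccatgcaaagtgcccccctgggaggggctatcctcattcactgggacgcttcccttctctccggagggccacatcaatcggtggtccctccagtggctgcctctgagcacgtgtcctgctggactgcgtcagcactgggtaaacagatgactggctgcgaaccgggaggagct
Searched on both strands, 10 of the 14 highest genes with an entry had a match, over 11 of their 18 start sites (61.1%). Either motif was in 27.7% of all 32851 windows of this length, CAGCTG in 13.0% and CACCTG in 17.2%. The windows of Myog, Actc1, Cdh15 and Wnt11, and those of Wnt6 and Zic1, held neither, while the window of Gatm held CACCTG. These matches are a description of the letters and not of binding sites.

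In the 35 cells with Myog, Acta1, the adult skeletal actin, had 450 UMIs against 2 UMIs in the 147 cells without it, a log2 ratio of 9.79 (7.93 to 12.84). Ttn stood at 555 UPM against 1.56 UPM, Actc1 at 794 UPM against 5.29 UPM and Mylpf at 653 UPM against 6.23 UPM. Mef2c, which works with myogenin on muscle promoters, stood at 341 UPM against 9.34 UPM, and Des (desmin) at 281 UPM against 13.7 UPM. Among the cells themselves, UMIs of the 28 differentiation genes ran from 1.36 to 527 per 10000 UMIs with a median of 25.2 in cells with Myog, and from 0 to 21.7 with a median of 4.01 in cells without it. In the progenitor cells the median was 2.79. These counts include Tpm1, which made up 301 of the 454 UPM summed over these genes in the cells without Myog. Lists of other cell types moved with this split. The blood list stood at 11.01 UPM with Myog and 867 UPM without, where 1 cell held 1088 of 1106 Hbb-y UMIs. The neural crest list stood at 67.3 and 35.8 UPM, the lateral plate list at 20.8 and 41.1 UPM, the endothelial list at 26.9 and 31.1 UPM, and the neural tube list at 446 and 72.9 UPM. Tubb3, a neuronal tubulin gene, had a log2 ratio over the progenitor cells of 1.43 in all Myf5 cells and -1.43 in those without Myog. Nes made up 341 UPM of the sum with Myog and Tubb3 99.1 UPM, while Sox1 and Pax6 had 1 UMI each. The part of these lists in the result was not tested. In their differentiation UMIs, the groups with and without Myog overlapped at the low end, and the 19 cells above 21.7 all held Myog.

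**Figure D2:**
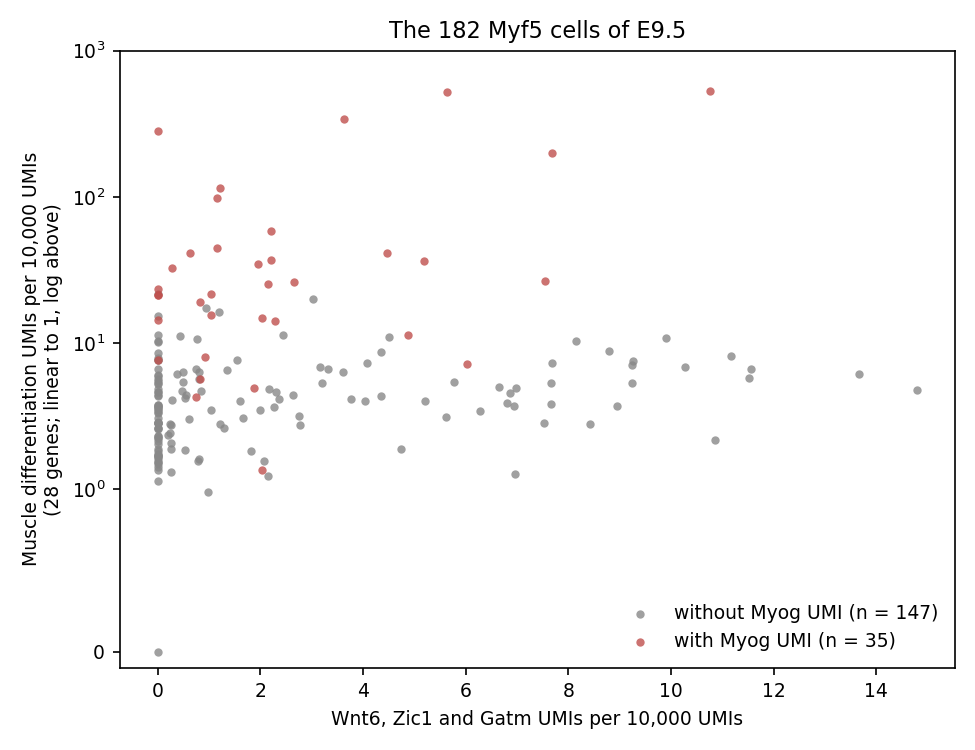
Each point is 1 of the 182 Myf5 cells of E9.5, placed by its UMIs of Wnt6, Zic1 and Gatm (x) and of 28 muscle differentiation genes (y, linear to 1 and log above), both per 10000 UMIs of the cell. Cells with a Myog UMI reach 527 on the y axis, cells without it 21.7, and both kinds of cell spread from 0 to above 10 on the x axis.

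The inhibitors Cdkn1c and Cdkn1a differed by the same split. Cdkn1c (p57), which holds differentiating muscle cells out of the cycle, stood at 4234 UPM in the cells with Myog, 265 UPM in those without and 190.0 UPM in the progenitor cells. Cdkn1a (p21), another inhibitor, stood at 429 UPM, 43.3 UPM and 5.89 UPM in that order. Its log2 ratio over the progenitor cells was 4.37 (4.06 to 4.69) for all Myf5 cells and 2.88 (2.50 to 3.26) without the Myog cells. Of the list of D cyclins and cell cycle inhibitors, 3 of 12 measured genes were past 2-fold higher in all Myf5 cells, with Rb1 as the other. Without the Myog cells it was 1 of 11 (Cdkn1a). Of all genes, 1.17% and 0.6% were higher in the same comparisons. Cdkn1b (p27) stood at 7.34 UPM with Myog and 12.5 UPM without, and Cdkn2d at 19.6 and 27.7 UPM. Genes of DNA replication (0 of 17 past 2-fold in either direction) and of mitosis (0 of 15) summed to 2074 and 2805 UPM in the Myf5 cells and 2270.4 and 2879.9 UPM in the progenitor cells. Within the Myf5 cells, Mki67 stood at 92.9 UPM (73.2 to 116) with Myog and 138 UPM (125 to 151) without.

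Pax3 and Meox1 levels were lower beside Myog within the Myf5 cells, whose rule asked for neither gene. Pax3 stood at 114.95 UPM (92.9 to 141) in the cells with Myog and 196 UPM (181 to 212) in those without, and was detected in 57.1% and 86.4% of them. Meox1, a homeobox factor of the whole somite, stood at 286 and 458 UPM. Dmrt2, a Pax3 target that helps switch on Myf5, stood at 40.4 UPM and 98.1 UPM. Zic1 was at 68.5 UPM with Myog and 125 UPM without, whereas Wnt6 was level at 45.2 and 46.1 UPM. Gatm had 116 UPM with Myog and 30.2 UPM without, and Cdh15 had 146 and 28.0 UPM. Sp5, a target of Wnt signalling, had 5 UMIs in the cells with Myog and 140 in those without, a log2 ratio of -2.83 (-4.48 to -1.58).

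Myog UMIs were also found outside the Myf5 cells, though no background share of free RNA was taken for Myog. Of 56 E9.5 cells with a Myog UMI and no Sox2, 35 were Myf5 cells, 8 had 1 Myf5 UMI and 13 had none. Of the 36 with at least 2 Myog UMIs, 28 were Myf5 cells, 4 had 1 Myf5 UMI and 4 had none. Of the 26 with at least 5 Myog UMIs, 22 were Myf5 cells. The other muscle determination genes were sparse. Myf6 had 67 UMIs in 15.4% of the Myf5 cells and 29 UMIs in 2.62% of the progenitor cells, a log2 ratio of 3.34 (2.69 to 4.02). Myod1 had 8 UMIs in the Myf5 cells, in 1.65% of them, and 2 UMIs in the progenitor cells, with an interval of the log2 ratio from 1.81 to 7.41. Of the 4 myogenic regulator genes measured besides Myf5 itself, Myog, Mef2a and Mef2c were at least 2-fold higher and Mef2d was not (0.43). Over all genes 1.17% were higher, but Myog reached the UMI minimum through the Myf5 cells, so this count is not read. Without the Myog cells none of the 3 of these still measured was past 2-fold, with Mef2a at 0.39 (1.12 in all Myf5 cells) and Mef2c at -0.36 (2.68).

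Without the 35 Myog cells, 54 of 8993 genes (0.6%) were at least 2-fold higher than in the progenitor cells and 79 (0.878%) at least 2-fold lower. Of the 106 higher genes, 45 (42.5%) remained, which is 83.3% of the 54. Of the 70 lower genes, 56 (80.0%) remained, or 70.9% of the 79. Only Cdkn1a, Cdh15 and Cck were among the 15 highest both times. In these 147 cells Ttn had a log2 ratio of 0.20 (-1.55 to 1.62), Actc1 of 0.50 (-0.36 to 1.29) and Mylpf of 0.44 (-0.34 to 1.16), intervals that all reach 0. The 28 muscle differentiation genes summed to 454 UPM in these cells against 342 UPM in the progenitor cells. Tpm1 alone made up 301 of the 454 UPM, so most of this sum was the level of Tpm1.

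**Figure D3:**
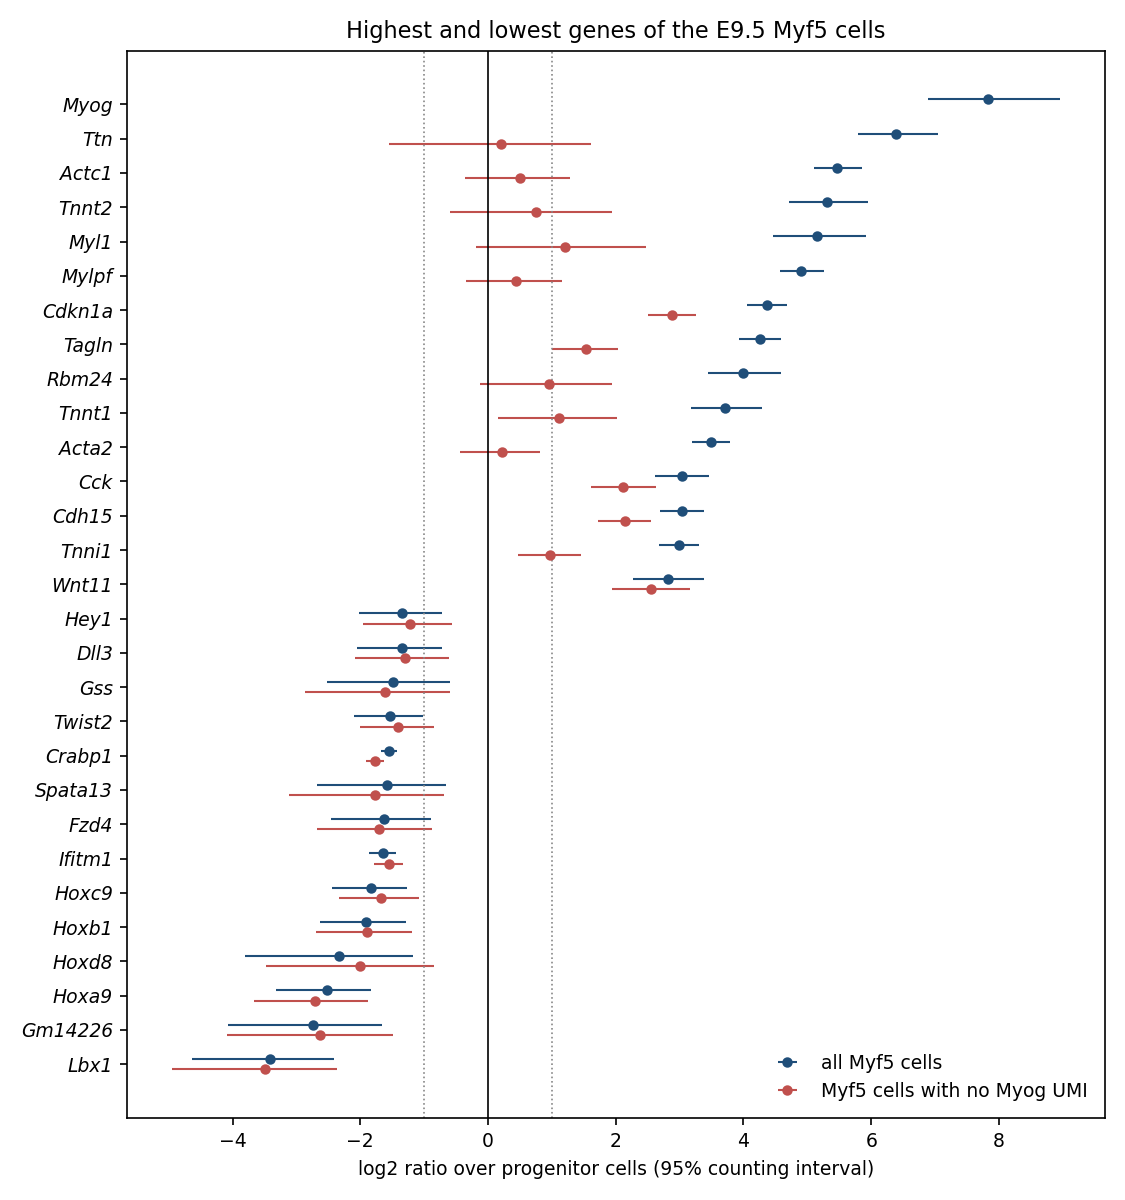
Log2 ratios over the progenitor cells with 95% counting intervals for the 15 highest genes and 14 of the 15 lowest, in all 182 Myf5 cells (blue) and in the 147 with no Myog UMI (red), where Myog itself is 0 and not drawn. Ttn goes from 6.39 to 0.20 without the Myog cells and Lbx1 from -3.41 to -3.49.

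Cdkn1a, Wnt6 and Zic4 were the 3 highest genes of the 147 cells without Myog. Wnt6 had a log2 ratio of 2.64 (2.29 to 2.99), and Wnt11, a ligand of the medial dermomyotome lip that here fell under the UMI minimum, of 2.55 (1.94 to 3.16). Zic4, which overlaps Zic1 on the opposite strand so that their reads may be mixed, stood at 21.8 UPM against 3.51 UPM (2.63), and Zic1 at 125 UPM against 32.6 UPM (1.94). Cdh15 (M-cadherin), the adhesion protein of muscle precursors, stood at 28.0 UPM against 6.34 UPM (2.14). Cck, the precursor of the peptide cholecystokinin, stood at 18.7 UPM against 4.30 UPM (2.12). Lrrn1, a leucine-rich repeat membrane protein, stood at 32.1 UPM against 7.76 UPM (2.05), and Ppp1r16b, a regulatory subunit of protein phosphatase 1, at 16.8 UPM against 3.91 UPM (2.11). Gatm (1.83), Sp5 (1.72), Foxb1, a forkhead factor (1.73), Slc1a3, a glutamate transporter (1.67), Chst15, a chondroitin sulfotransferase (1.74), Cdc42ep3, a Cdc42 effector (1.71), and the mitochondrial carrier gene Slc25a48 (1.54) completed the 15 highest. Zic and other dorsal genes were past 2-fold higher in 3 of 7 measured (Zic1, Zic4 and Wnt6) in these cells, against 0.6% of all genes. When all Myf5 cells were used it was 4 of 8, with Wnt11 added, against 1.17%. Genes such as Wnt11 could reach the UMI minimum through the Myf5 cells, and Wnt6 and Zic1 were markers of the label, so no enrichment is read.

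Cells with Wnt6 shared more than Zic1. Cck stood at 71.6 UPM in the 72 Myf5 cells with Wnt6 and 12.8 UPM in the 110 without. Sp5 stood at 71.6 UPM against 14.0 UPM, and Sparcl1, a matricellular protein gene, at 98.3 UPM against 14.4 UPM. Stra6, the receptor that takes up retinol, stood at 105 UPM against 30.9 UPM, and Cdx1, a caudal-type homeobox factor, at 67.7 UPM against 14.0 UPM. Fgf8 went the other way, with 13.0 UPM in the cells with Wnt6 and 74.2 UPM in the cells without, and so did Hoxb8, with 10.4 and 51.3 UPM, and Ebf1, with 12.4 and 44.5 UPM. The imprinted gene Peg3 stood at 131 UPM against 395 UPM. Pax3 was detected in 80.6% of the cells with Wnt6 and 80.9% of those without, Dmrt2 in 56.9% and 54.5%, and Myog in 25.0% and 15.5%. Split by Zic1, the 83 cells with it had 88.8 UPM of Wnt6 and 92.7 UPM of Sparcl1 against 10.0 and 7.75 UPM in the 99 without, and 15.3 UPM of Fgf8 and 14.7 UPM of Timp3, an inhibitor of metalloproteinases, against 80.6 and 68.8 UPM.

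In the Wnt pathway, 3 of 26 measured genes were past 2-fold higher in the Myf5 cells (Wnt6, Wnt11 and Sp5) and 2 lower. Over all genes, 1.17% were higher and 0.77% lower. Without the Myog cells, where Wnt11 fell under the UMI minimum, 2 of 25 were higher and 2 lower. Fzd4, a Wnt receptor, stood at 3.97 UPM against 12.2 UPM in the progenitor cells (-1.62), and Rspo3, which amplifies Wnt signals, was the other. The neural tube ligands Wnt1 and Wnt3a were at 0 UMIs in the Myf5 cells. None of 16 Notch pathway genes was past 2-fold higher and 3 were lower, where 0.77% of all genes were lower. Hey1, a Notch target, stood at 5.71 UPM against 14.5 UPM (-1.34, -2.03 to -0.73), and Nrarp, a Notch target that dampens the pathway, at 1.74 UPM against 7.87 UPM (-2.18, -3.52 to -1.10). Dll3, a Notch pathway ligand of somite formation, stood at 5.46 UPM against 13.9 UPM (-1.35, -2.05 to -0.71). The somite-border gene Ripply2 had 0 UMIs in the Myf5 cells and 425 in the progenitor cells, which is at least 32.3-fold lower when the Myf5 cells are set to a floor of 3 UMIs over the class. Msgn1, Mesp1 and Cer1 were also at 0 UMIs in the Myf5 cells.

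Among growth factors, Pdgfa, a ligand made by the early myotome, stood at 50.4 UPM against 13.6 UPM, a log2 ratio of 1.88 (1.61 to 2.16) that was 0.72 (0.32 to 1.10) without the Myog cells. Pdgfc (1.61) and Igf1 were also past 2-fold higher, and Kitl (-2.62) and Ednrb (-2.07) lower, out of 15 measured. Over all genes, 1.17% were higher and 0.77% lower, which holds for the next lists too. Fgf8, a ligand of the presomitic mesoderm and early myotome, stood at 50.9 UPM against 21.2 UPM (1.26) and was the only 1 of 13 measured Fgf pathway genes past 2-fold. Fgf6, a muscle Fgf, had 19 UMIs in the Myf5 cells and 2 in the progenitor cells (log2 ratio 5.38, 3.33 to 8.53), and Fgf4 had 4 and 0. Both genes were at 0 UMIs in the Myf5 cells without Myog. None of 9 Hedgehog genes was past 2-fold, with Cdon, a co-receptor, highest at 0.53. In the Bmp and Tgf-beta list 1 of 14 was lower (Msx1). Of the early response genes, 1 of 5 was past 2-fold (Atf3, 1.59), and Jun, which dissociation can induce, had 0.60 and 0.04 without the Myog cells.

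Aldh1a2, the enzyme that makes retinoic acid in the somite, stood at 203 UPM in the Myf5 cells and 76.3 UPM in the progenitor cells, a log2 ratio of 1.41 (1.28 to 1.54) that was 1.38 without the Myog cells. Crabp1, a retinoic acid binding protein gene, was lower, with 151 UPM against 442 UPM (-1.55), and 1 Myf5 cell held 213 of its 608 UMIs. Rarb, a retinoic acid receptor, was at 3.47 UPM against 7.02 UPM (-1.01, and -0.91 without the Myog cells). That list had 1 gene higher and 2 lower of 10 measured, where 1.17% and 0.77% of all genes were.

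Over all genes, 1.17% were past 2-fold higher and 0.77% lower, to be set beside the list counts that follow. Of 14 measured somite and dermomyotome genes, 2 were past 2-fold higher and 1 lower, with a median log2 ratio of 0.16. Eya2, a transcriptional cofactor (21.8 UPM against 7.47 UPM, 1.55), and Wnt11 were the higher genes and Alx1 (-1.71) the lower, whose value was 0.06 when cells were thinned to 5000 UMIs before the classes were chosen and 1 Myf5 UMI was enough. Dmrt2 stood at 86.4 UPM against 59.9 UPM (0.53). Of 9 measured early myotome genes 1 was past 2-fold (Pdgfa), while Itga6, an integrin that binds laminin, had 77.2 UPM against 47.4 UPM (0.70). Hes6, which promotes differentiation, had 44.2 UPM against 26.6 UPM (0.73). Cdh15 was the only 1 of 20 adhesion and basement membrane genes past 2-fold, and the neural cell adhesion molecule Ncam1 stood at 180 UPM against 112 UPM (0.68). Gatm was the only 1 of 4 measured creatine genes past 2-fold, with the creatine kinase Ckb at 0.98 (0.06 without the Myog cells). In glycolysis 1 of 17 genes was past 2-fold, the glucose transporter Slc2a3, which was lower (-2.40).

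Among the 15 lowest genes found in at least 10% of the progenitor cells were Lbx1, Gm14226, Hoxa9, Hoxd8, Hoxb1, Hoxc9, Ifitm1, Fzd4, Spata13, Crabp1, Twist2, Gss, Dll3 and Hey1. Lbx1, the homeobox factor of muscle precursors that migrate to the limb, had 8 UMIs in 6 Myf5 cells and 372 UMIs in 124 progenitor cells, which is 1.99 UPM against 21.1 UPM and a log2 ratio of -3.41 (-4.63 to -2.41). Msx1 was the other 1 of 7 hypaxial genes past 2-fold lower (-1.34), where 0.77% of all genes were. Of 10 sclerotome genes 2 were lower, Twist2 (7.94 UPM against 23.0 UPM) and Sox9 (20.6 UPM against 46.3 UPM). Ifitm1, an interferon-induced membrane protein gene, stood at 50.6 UPM against 158 UPM (-1.65, -1.86 to -1.44) and was detected in 35.7% against 50.1% of the cells. Ifitm3 was lower too (-1.03), as 2 of 7 measured in the list of Ifitm and fusion genes, but was within 2-fold without the Myog cells (-0.96). Gm14226, a predicted gene inside the span of another on the same strand and so of uncertain counting, had 7 UMIs against 204 (-2.73). Spata13, a guanine nucleotide exchange factor (-1.58), and Gss, glutathione synthetase (-1.49), differed less. Each of these 14 stayed lower without the Myog cells, with log2 ratios from -3.49 for Lbx1 to -1.22 for Hey1.

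The neural crest list summed to 42.2 UPM in the Myf5 cells against 103 UPM in the progenitor cells, with Ets1 as its most abundant gene. Sox10 stood at 2.23 UPM against 10.7 UPM, Foxd3 at 1.24 against 6.17 UPM, Tfap2b at 3.97 against 16.2 UPM, and Erbb3 at 2.48 against 5.55 UPM. Sox10 was found in 5.61% of the progenitor cells. Pax3 is also a gene of the neural crest, so the progenitor class can hold such cells. With every cell that held a UMI of Sox10, Foxd3, Pecam1, Cdh5, Epcam, Pax6 or Sox1 left out of both classes, 109 genes were past 2-fold higher and 49 lower, and the log2 ratio of Tfap2b went from -2.03 to 0.04.

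Hox genes differed by their position in the clusters. Of 26 measured, none was past 2-fold higher and 6 were lower, 5 of them among the 7 measured genes of paralogue groups 8 to 11. Of all genes, 0.77% were lower. Hoxa9 had 17 UMIs in the Myf5 cells and 430 in the progenitor cells, 4.22 UPM against 24.3 UPM, a log2 ratio of -2.53 (-3.32 to -1.83). Hoxd8 stood at -2.34, Hoxd9 at -2.19, Hoxc9 at -1.83 and Hoxc8 at -1.21, while Hoxb8 (-0.30) and Hoxb9 (-0.54) were within 2-fold. The summed groups 8 to 11 had 147 UPM against 267 UPM, a log2 ratio of -0.86 (-0.99 to -0.74). The sums of groups 5 to 7 had -0.50 (-0.60 to -0.39), and those of groups 1 to 4 had -0.22 (-0.30 to -0.14). Hoxb1 broke this order, with 21 UMIs against 348 and a log2 ratio of -1.92 (-2.63 to -1.28). Somites along the dissected stretch were pooled, so position along the body and the state of a cell cannot be told apart in these values.

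**Figure D4:**
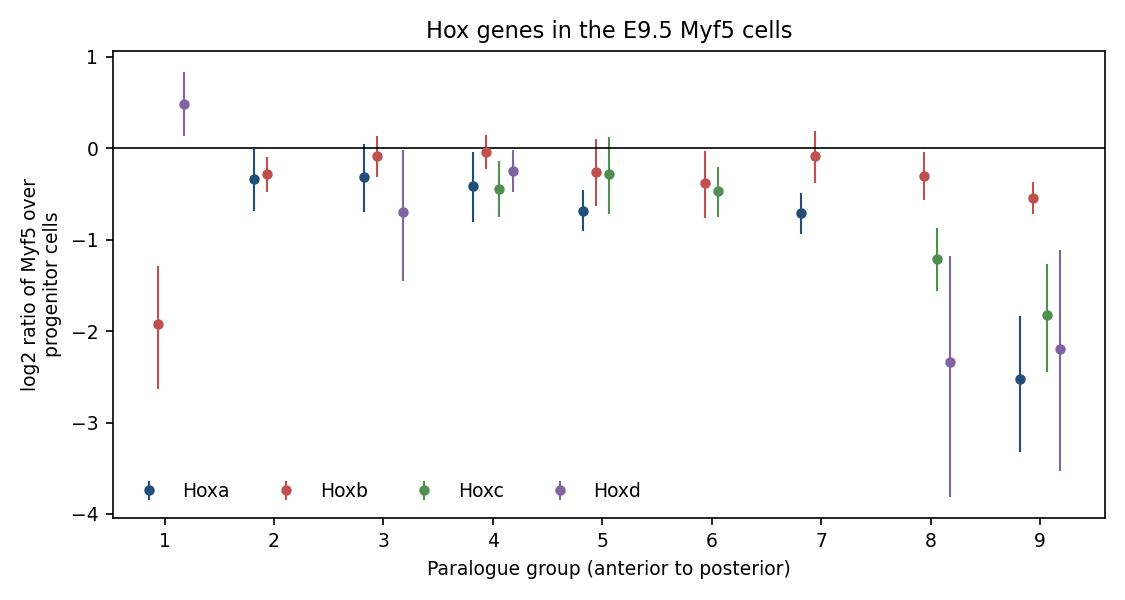
Log2 ratio of the Myf5 cells over the progenitor cells of E9.5 with 95% counting intervals for 25 of the 26 measured Hox genes, by paralogue group from anterior to posterior and coloured by cluster. Values lie between -0.71 and -0.04 in groups 2 to 7 and reach -2.53 for Hoxa9 in group 9, and Hoxb1 in group 1 stands apart at -1.92.

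By the same rule the E11.5 library held 537 Myf5 cells among 9595 (5.60%, 5.14% to 6.08%), with a median of 17935 UMIs. Stage and library cannot be told apart in what follows. The genes measured were the 8816 with at least 100 UMIs summed over the Myf5 cells of both stages. Of these, 279 (3.16%) were at least 2-fold higher in the E9.5 Myf5 cells and 897 (10.2%) at least 2-fold lower. Wnt6 stood at 45.9 UPM at E9.5 and 2.26 UPM at E11.5, and was detected in 39.6% and 2.23% of the Myf5 cells. Wnt11 (18.4 against 3.76 UPM), Cck (35.2 against 6.58 UPM), Lef1, a transcription factor of Wnt signalling (54.4 against 5.64 UPM), and Dmrt2 (86.4 against 22.0 UPM) were likewise higher at E9.5. Zic1 stood at 113 UPM and 61.3 UPM, while Gatm was lower at E9.5, with 47.6 against 102 UPM.

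Among the 10 highest genes at E9.5 against E11.5 were Cdx1 and Lin28a. Cdx1 had 139 UMIs and Lin28a, an RNA-binding protein that blocks let-7, had 137, and both were at 0 UMIs in the E11.5 Myf5 cells. Set to a floor of 3 UMIs over the E11.5 class, the ratio was at least 122-fold for Cdx1 and at least 121-fold for Lin28a. Nr6a1, an orphan nuclear receptor of the trunk, stood at 56.8 against 0.658 UPM. Prtg (protogenin, a membrane protein of early mesoderm) stood at 307 against 5.83 UPM and Mogat2 (an acyltransferase) at 63.0 against 1.22 UPM. Ifitm1 (50.6 against 1.22 UPM) and Aldh1a2 (203 against 5.27 UPM) were among them too. Of 25 Hox genes measured, 13 were past 2-fold higher at E9.5 and 9 lower, where 3.16% and 10.2% of all genes were. The blood list stood at 693 UPM at E9.5 and 50.9 UPM at E11.5, with 1 cell holding most of the Hbb-y UMIs, as above. Other lists moved with the stage too. The neural crest list stood at 42.2 UPM at E9.5 and 89.7 UPM at E11.5, the lateral plate list at 37.0 and 83.0 UPM, the intermediate mesoderm list at 14.9 and 33.9 UPM, the endothelial list at 30.3 and 16.4 UPM, and the neural tube list at 149 and 258 UPM. Early response genes, which dissociation can induce, summed to 270 and 508 UPM, with Jun at 53.9 against 270.5 UPM, Fos at 0.248 against 11.6 UPM and Egr1 at 2.73 against 22.3 UPM. The median mitochondrial share of a cell was 2.17% and 3.61%. The part of these in the differences between the stages was not tested.

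The 28 muscle differentiation genes summed to 1847 UPM at E9.5 and 12768 UPM at E11.5, with Actc1 at 165 against 1125 UPM and Mylpf at 137 against 1890.2 UPM. Myog was found in 19.2% of the Myf5 cells at E9.5 and 42.1% at E11.5, so the genes were also set side by side within each kind of cell, a comparison added after the values had been seen. In the cells with Myog they summed to 7317 against 23671 UPM, with Actc1 at 794 against 2372 UPM and Mylpf at 653 against 4006 UPM. In the cells without it they summed to 454 against 3113 UPM, with Actc1 at 5.29 against 22.0 UPM and Mylpf at 6.23 against 16.1 UPM. Tpm1 made up 301 of the 454 UPM at E9.5. Over all genes, 564 of 7345 (7.68%) were at least 2-fold lower at E9.5 and 233 (3.17%) higher without the Myog cells of both stages. In the cells with Myog, 567 of 6254 (9.07%) were lower and 133 (2.13%) higher. When all 182 E9.5 Myf5 cells, those with Myog included, were set against the 190 E11.5 cells without Myod1 and Myog, 406 were lower. This comparison was not matched for Myog, and the number of genes measured in it is not given. Myod1 stood at 1.99 against 199 UPM, and Myog at 115.4 against 438 UPM. Pax7, the factor of later muscle progenitors, had 7.20 against 65.9 UPM, and Pdgfa had 50.4 against 314 UPM. Cdkn1c stood at 1070.4 UPM at E9.5 and 4926 UPM at E11.5. The lowest 10 included Capn6, a calpain without protease activity (2 UMIs against 2259), Msc, the bHLH factor musculin (1 against 1009), the zinc finger gene Bcl11a (1 against 587), the matrix protein gene Postn (1 against 495), the kinase gene Nrk (7 against 3241), the pentraxin gene Ptx3 (1 against 342), the membrane protein gene Emp3 (1 against 279), the growth factor gene Fgf5 (2 against 550) and the fatty acid binding protein gene Fabp3 (1 against 273). For Msc the log2 ratio was -8.58 with an interval from -13.88 to -6.10.

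**Figure D5:**
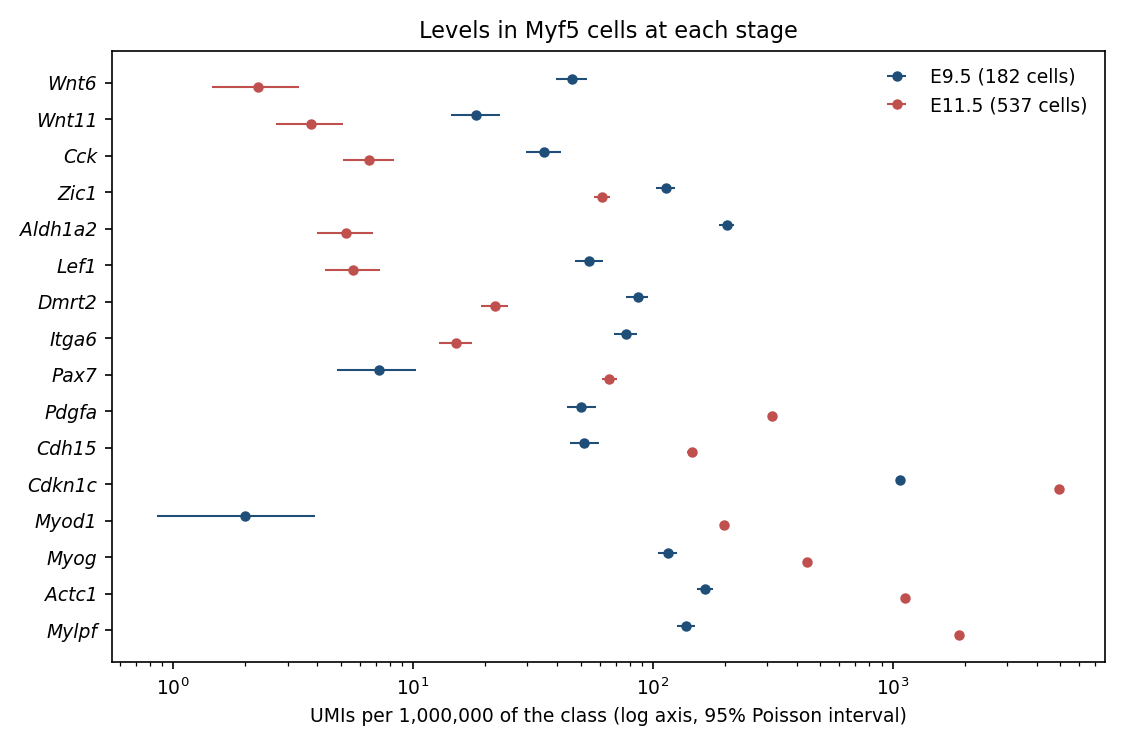
Levels of 16 genes in the Myf5 cells of E9.5 (blue, 182 cells) and E11.5 (red, 537 cells), in UMIs per 1000000 of the class on a log axis with 95% Poisson intervals. Wnt6 stands at 45.9 UPM at E9.5 and 2.26 UPM at E11.5, Mylpf at 137 and 1890.2 UPM.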

How the data were processed

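Single-cell libraries of pooled E9.5 and E11.5 inter-limb somites were made on the 10x Genomics platform. The deposited values are the raw UMI counts per gene and barcode, which the authors made with Cell Ranger 3.0.1 on mm10 per the submitters' processing notes, without normalization, for 27998 genes. As in the study, cells with 200 to 6499 genes and under 15% mitochondrial UMIs were kept (9851 of 10121 barcodes at E9.5 and 9595 of 10167 at E11.5). No doublet caller was applied beyond this cap on genes. Scrublet, in scanpy 1.11.5, called 5.8% of the E9.5 barcodes, 3.85% of the Myf5 cells and 5.61% of the progenitor cells, and was an alternative only.

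The level of a gene in a class was its summed UMIs over the total of the class. Poisson intervals for levels, Clopper-Pearson intervals for shares and conditional intervals for ratios were exact (scipy 1.17.1, numpy 2.4.6, pandas 2.3.3, Python 3.11.15, plots with matplotlib 3.10.9). The code for ratios was run on simulated Poisson counts of the classes. This checks the arithmetic only, since the simulated counts had no differences between cells. Genes were measured with at least 100 UMIs in the compared classes together, and 2-fold was the limit of size. Thinning drew 5000 UMIs per cell. No test was made, since each stage had 1 library.

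The members and the 31 gene lists were chosen with earlier results of these data known. Named genes are the 15 highest and 15 lowest ratios among genes found in 10% of the higher class, the markers and genes of the rule, up to 4 genes of each list with the largest ratios, a few known myotome genes, and the 10 highest and 10 lowest between stages. Further genes of lists, of the splits by Wnt6 and Myog, and the genes highest without Myog were named after their values were seen. Positions are from GENCODE M21. Cdh15, Chst15, Gm14226 and Hoxc9 overlap another gene on the same strand, and Zic1, Zic4, Wnt6, Ttn and others a gene on the opposite strand. Whether strand was used in counting is not given in the sources used here. A few of the genes picked by the rule for named genes are not reported here.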

Additional observations from a re-analysis of the deposited data

Results flagged for a closer look

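At 4 genes the Myf5 cells stood above the progenitor cells at one stage and below them at the other, by at least 2-fold each time. The number of genes compared at both stages is not given, so the 4 are not read as a share. At E11.5 the progenitor cells were the 245 cells chosen by the same rule (median 15959 UMIs). Which of the classes a change came from was not tested. The differences between the stages were not tested, since each stage had 1 library. Zic4 had a log2 ratio of 2.41 at E9.5 and -1.02 at E11.5. For Slc1a3 the values were 1.53 and -1.53, with 53.1 UPM in the E9.5 Myf5 cells and 15.0 UPM in those of E11.5. Apoe, a lipid transport protein gene, had 1.00 at E9.5 and -1.09 at E11.5. Erbb3, the neuregulin receptor of Schwann cell precursors and muscle progenitors, had -1.16 at E9.5, from 10 UMIs in the Myf5 cells, and 1.45 at E11.5.

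The rule left out 20 E9.5 cells that had at least 2 Myf5 UMIs and also a Sox2 UMI. Their median depth was 28985.5 UMIs, above the 20215 of the Myf5 cells. Of the 20, 17 held both Pax3 and Meox1, 10 held a single Sox2 UMI, 1 held Myog and 10 were called doublets by Scrublet.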

How the results depend on the processing

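The number of Myf5 cells was 461 at 1 Myf5 UMI or more and 94 at 3 or more. Genes at least 2-fold higher numbered 161 and lower 159 with at least 3 Myf5 UMIs, and 43 were lower with at least 1. Without the Myog cells 54 were higher. Thinning to 5000 UMIs gave 50 higher when done after the choice of cells, and 29 higher and 21 lower when done before it, where at least 1 Myf5 UMI was asked of the thinned cells (195 Myf5 cells), so that depth and rule changed together. A minimum of 30 UMIs gave 247 higher and 274 lower, and of 300 UMIs 51 and 23. The number of genes measured changes with such settings, also between the stages. It is not given for most of them, so the counts are not shares. The log2 ratio of Wnt6 was 1.99 with at least 1 Myf5 UMI, 3.06 with at least 3, 2.13 when thinned before the choice and 3.02 as a mean over cells. For Zic1 it was 1.42 and 2.05 with at least 1 and 3 Myf5 UMIs, 2.05 when thinned after the choice and 2.06 as a mean over cells, and for Gatm 1.72 and 2.97 with at least 1 and 3, 1.83 without the Myog cells and 1.84 when thinned before the choice. Thinned shares were 15.6% (Wnt6), 29.1% (Zic1) and 17.9% (Gatm). Between stages, thinning gave 116 higher and 348 lower. All E9.5 Myf5 cells against the E11.5 cells without Myod1 and Myog gave 406 lower. Cells without Myog at both stages gave 564 lower (chosen after seeing the data). Removing Scrublet calls left 175 Myf5 cells, with 109 genes higher and 66 lower. Of 1361 values of 125 genes picked in the comparison with progenitor cells, 1052 stayed within the counting interval, 305 moved out of it and 4 reversed. A value was called reversed if it left the interval with the opposite sign and the main ratio was at least 2-fold. Other changes of sign were counted with the 305, or with the 1052 if inside the interval, and were not counted apart. The 4 reversed values were Mef2c (-0.36) and Tubb3 (-1.43) without the Myog cells, Alx1 (0.06) when thinned before the choice with at least 1 Myf5 UMI and Tfap2b (0.04) without cells holding markers of other types. The causes were not tested. No paired analysis was possible because each stage has 1 library, numbered in accession order only. Genes with few UMIs in the Myf5 cells, such as Myod1 and Fgf4, are limited by depth.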
